A study of Mus musculus with 22 samples.

Results

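The data compared here were the miRNAs of the doxycycline-induced fallopian tube (FT) and of the plasma taken from the same 4 tumor-bearing mice. The plasma samples TS1, TS2, TS3 and TS4 were paired with the tubes FT2, FT3, FT4 and FT5 by the genotype list of the study, which gave 8 of the 22 samples of the series. TS samples are given as serum in one GEO label but as plasma in the tissue tag and the study's methods, and they are called plasma here. The question was which miRNAs of the tube were found in the plasma of the same animal, at what share, and whether mice with more of a miRNA in the tube had more of it in the plasma.

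All 4 mice carried a doxycycline-inducible Pax8-Cre, so the deletions were directed to Pax8-expressing cells, among them the secretory cells of the tube, and not to every cell in the sample. FT2 and TS1 came from a Brca1-/- mouse, and FT4 and TS3 from a Brca2-/- mouse. FT3 with TS2 and FT5 with TS4 came from 2 mice listed as Brca2-/+. Genotypes therefore differed among the 4 mice, and with 1 or 2 mice for each they were not compared. For comparison, the same pairing was made in 3 uninduced control mice with floxed alleles, whose tubes (CT2, CT3 and CT4) were set against their own plasma (CS2, CS3 and CS4). Ages were not given in the sources used here. RNA input was 100 ng for a tube and 10 ng for a plasma, so the input and the kind of sample cannot be told apart.

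MicroRNAs are short RNAs that pair with messenger RNAs, mainly through the bases near their 5′ end called the seed, and lower the output of those messages. Many are made mainly in 1 tissue or cell type, and cells release some of them into the blood, where they are carried in vesicles or bound to protein. Blood cells, the liver and the endothelium are known as main sources of plasma miRNA.

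Counts on all mouse miRNA probes of the panel summed to 175531, 74888, 215577 and 327094 in FT2 to FT5, and to 106379, 171646, 94466 and 269005 in TS1 to TS4. FT3 and TS3 had the fewest counts in their groups. A level in this text is the share of a sample's miRNA counts taken by 1 miRNA, in percent. Shares of different miRNAs were set side by side only as counts on their probes, since probes need not capture equally well. The level that counts as background was the mean plus 2 SD of the 8 negative hybridization controls of a sample, between 24.2 and 50.1 counts in the tubes and between 29.4 and 37.0 in the plasmas. Probes for 4 housekeeping messenger RNAs summed to between 577 (FT3) and 55241 (FT2) counts in the tubes, and to between 32 and 204 (TS4) in the plasmas.

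The mature sequences of miRNAs that differed between tube and plasma are shown with relatives that have the same seed, so that members of a family can be set side by side. Each is written 5′ to 3′ with the seed, bases 2 to 8, in capitals, from RefSeq on GRCm38.p6, where 33 of 35 names looked up were matched. Higher in plasma were an erythroid and a hepatic and intestinal miRNA with unrelated seeds.
miR-451a: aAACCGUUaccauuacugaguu
miR-192-5p: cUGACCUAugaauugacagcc
They lie at chr11:78073186-78073207 (plus strand) and chr19:6264857-6264877 (plus strand). In the epithelial miR-200 family, which has a pair of seeds that differ by a single base, miR-200c, miR-429 and miR-200a passed the test as higher in tube, while miR-200b and miR-141 did not pass it. MiR-200c, miR-200b and miR-429 share 1 seed, and miR-200a and miR-141 share the other.
miR-200c-3p: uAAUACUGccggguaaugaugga
miR-200b-3p: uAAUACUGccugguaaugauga
miR-429-3p: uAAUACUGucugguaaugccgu
miR-200a-3p: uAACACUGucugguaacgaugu
miR-141-3p: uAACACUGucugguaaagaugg
The genes of miR-200c (chr6:124718324-124718346) and miR-141 (chr6:124717917-124717938) are neighbours, as are those of miR-200b (chr4:156055685-156055706), miR-200a (chr4:156054911-156054932) and miR-429 (chr4:156053916-156053937), all on the minus strand. Also higher in tube were miR-10a and miR-10b, encoded within Hox gene clusters, and the related miR-100 and miR-99a.
miR-10a-5p: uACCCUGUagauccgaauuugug
miR-10b-5p: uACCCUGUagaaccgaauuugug
miR-100-5p: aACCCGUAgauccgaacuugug
miR-99a-5p: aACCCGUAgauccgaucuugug
The members of each pair differ at 1 position, out of 23 compared for miR-10a and miR-10b and out of 22 for miR-99a and miR-100. They map to chr11:96317186-96317208, chr2:74726074-74726096, chr9:41531437-41531458 and chr16:77598940-77598961 (all plus strand). In the let-7 family, let-7a and let-7e passed the test, and let-7g, with the same seed, was higher in plasma in 2 mice and in tube in 2.
let-7a-5p: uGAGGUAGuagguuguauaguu
let-7e-5p: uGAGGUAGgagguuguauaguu
let-7g-5p: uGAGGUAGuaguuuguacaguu
Over 22 bases let-7a differs from let-7e at 1 position and from let-7g at 2. Counts on probes for such near-identical RNAs are uncertain as to which member they came from. The last 2 miRNAs past the threshold stand alone by seed among those looked up.
miR-135a-5p: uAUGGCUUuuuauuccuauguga
miR-672-5p: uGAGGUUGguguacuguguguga
miR-672 lies at chrX:104116228-104116250 (minus strand), while miR-135a-5p is listed at 2 loci with the same mature sequence. The sequences of miR-122 and miR-486, which were also higher in plasma, are not shown.

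The plasma profile was dominated by very few miRNAs and the tube profile was not. In each plasma 1 or 2 miRNAs sufficed to make up 50% of the miRNA counts, while 5 to 11 were needed in each tube. The 10 most abundant held between 76.1% and 84.3% of the counts in plasma and between 49.5% and 70.1% in tube. MiR-122, the abundant miRNA of hepatocytes, and miR-451, an abundant miRNA of erythrocytes, together held 56.6%, 61.8%, 51.9% and 61.2% of the counts in TS1 to TS4. In FT2 to FT5 the same pair held 0.0467%, 2.14%, 0.0510% and 0.220%.

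**Figure D1:**
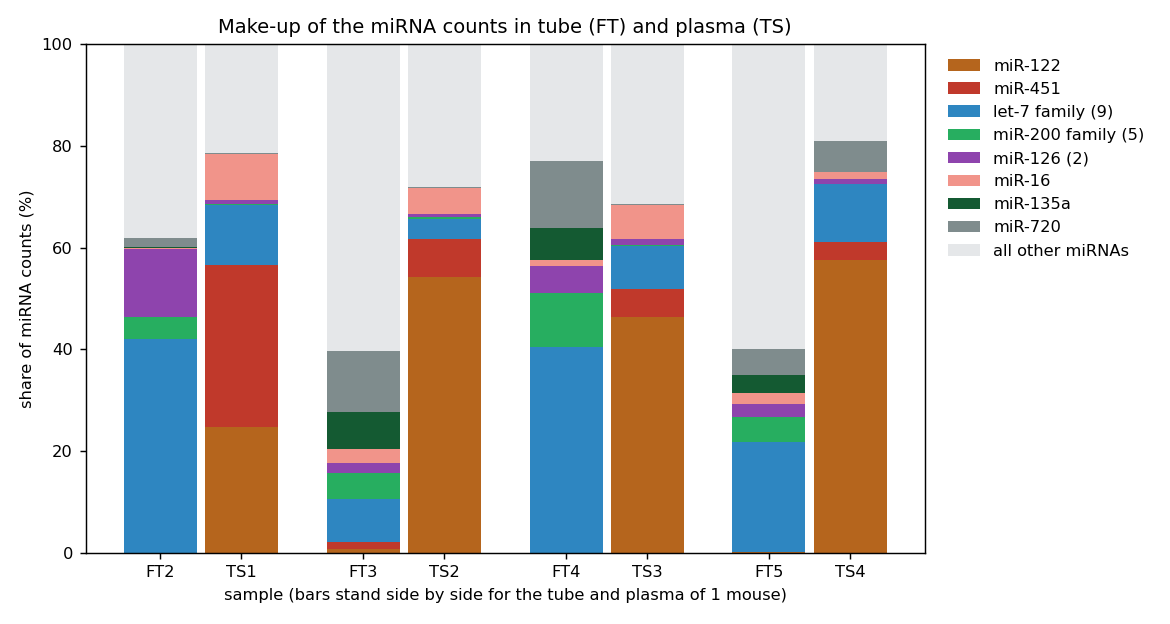
Share of miRNA counts (vertical axis, % of all counts on mouse miRNA probes) taken by named miRNAs and families in each tube (FT) and in the plasma (TS) of the same mouse. MiR-122 and miR-451 fill between 51.9% and 61.8% of each plasma bar and at most 2.14% of a tube bar, and the let-7 family fills between 8.46% and 42.0% of a tube bar.

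By mean share, the 8 leading miRNAs of the tubes were let-7b, miR-720, let-7c, miR-126-3p, miR-125b-5p, miR-135a, let-7a and miR-1944. Those of the plasmas were miR-122, miR-451, miR-16, miR-22, let-7g, miR-148a, let-7b and let-7c, so that let-7b and let-7c stood in both. Let-7b, a member of the let-7 family that is abundant in differentiated cells, took 15.9%, 1.73%, 12.01% and 5.55% in FT2 to FT5 and 2.57%, 1.97%, 2.12% and 1.11% in TS1 to TS4. The groups overlapped, because FT3 was below 3 of the 4 plasmas, and the log2 fold change of -1.88 (SE 1.31) did not pass the test (adjusted p = 0.736, edgeR quasi-likelihood). Let-7c, with a log2 fold change of -1.58, gave an adjusted p of 0.742.

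Most of the miRNAs that could be measured in the plasmas could also be measured in the tubes. The mean count was above the negative-control level for 156 miRNAs in the tubes, for 121 in the plasmas and for 107 in both. The 107 held between 93.7% and 97.2% of the counts of a plasma and between 80.1% and 89.7% of those of a tube. By mouse, 55 miRNAs were above the level in both FT2 and TS1, 96 in FT3 and TS2, 77 in FT4 and TS3, and 111 in FT5 and TS4. Against the 3 negative ligation controls in place of the hybridization controls, 178 miRNAs counted as measured in tube, 185 in plasma and 144 in both. Which kind of sample had more measured miRNAs therefore depends on the control used.

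The 14 miRNAs whose mean count was above the level only in the plasmas were led by miR-144, miR-192, miR-194 and miR-206. Their mean plasma shares were 0.311%, 0.271%, 0.148% and 0.0791%. A single tube can still hold such a miRNA: the highest tube share of miR-144 (0.0748%) exceeded its lowest plasma share (0.0296%). MiR-144 is made from the same transcript as miR-451 in erythroid cells, miR-192 and miR-194 are co-transcribed and abundant in liver and intestine, and miR-206 is a skeletal muscle miRNA. Of the 49 whose mean count was above the level only in the tubes, miR-135a, miR-200c, miR-429, miR-10b and miR-196b had the largest mean shares, between 0.471% and 4.31%. These names were taken from the order of the values themselves and carry no test. The mean of miR-196b rested on FT2 and FT4, since it was below the level in FT3 and FT5.

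**Figure D2:**
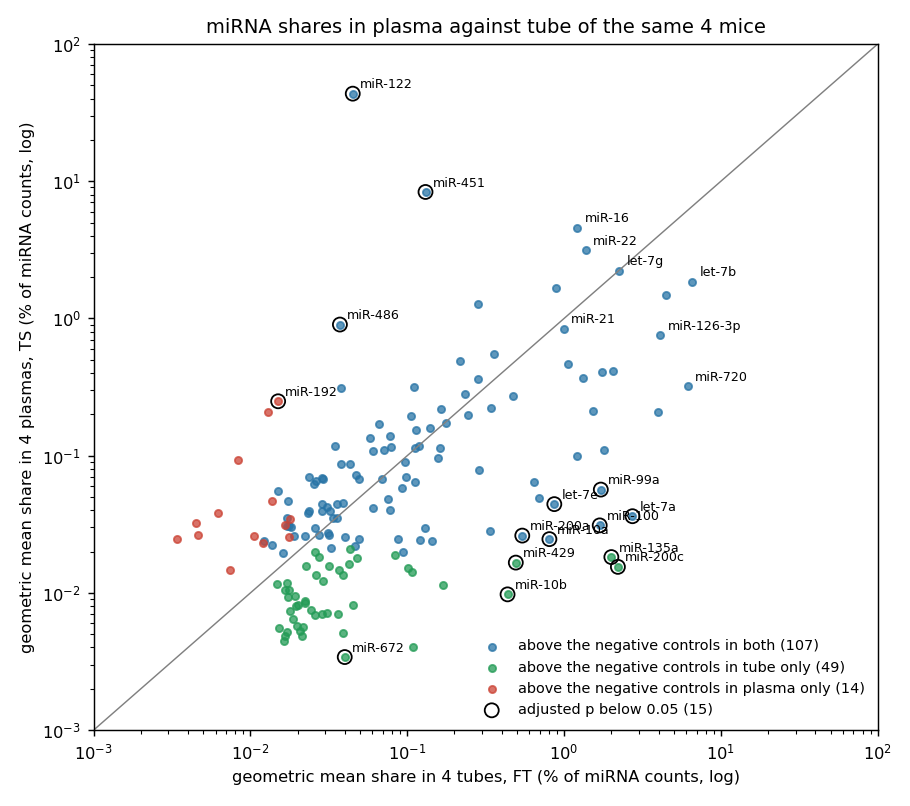
Geometric mean share of each of the 170 miRNAs above the negative controls in a group, in 4 tubes (horizontal, % of miRNA counts, log axis) and in 4 plasmas of the same mice (vertical, log axis), with the line of equal shares. MiR-122, miR-451, miR-486 and miR-192 lie far above the line, and the miR-200 members, miR-135a, miR-10a, miR-10b, miR-99a and miR-100 far below it.

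With the mouse as a block, edgeR's quasi-likelihood test placed 15 miRNAs past the threshold (2.65% of all tested), of which 4 were higher in plasma (0.707%) and 11 higher in tube (1.94%). All 15 were among the 170 above the negative controls in a group (8.82% of these). In all 15 every mouse showed the same direction, and in 14 of them the 4 tube shares and the 4 plasma shares did not overlap. Over the whole panel, shares did not overlap in 13 miRNAs that were higher in plasma (2.30%) and in 39 that were lower (6.89%). Among the 170 these numbers were 9 (5.29%) and 27 (15.9%). An unadjusted p below 0.05 was found for 56 miRNAs. An exact sign-flip test of 1 miRNA over 4 mice cannot reach the threshold whatever the values, so single miRNAs rest on the fit across the panel.

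Shares of a sample sum to a whole, so the counts that miR-122 and miR-451 take in plasma lower the share of every other miRNA there, and the panel as a whole had a median log2 fold change of -0.44. The balance of calls depends on this scale. TMM factors, which set that median at -0.04, gave 16 higher and 11 lower, quantile normalization with limma gave 10 higher and 9 lower, and leaving miR-122 and miR-451 out of the total (median 0.78) gave 16 higher and 4 lower. The calls with TMM, quantile normalization and that reduced total included 12, 11 and 8 of the 15. Without the mouse as a block, 48 miRNAs passed (12 higher and 36 lower), among them all 15. Leaving out a mouse brought the number to 3 without TS1 and FT2, 3 without TS2 and FT3, 12 without TS3 and FT4, and 11 without TS4 and FT5. In that order, 3, 3, 5 and 9 of these calls were among the 15, and the rest were other miRNAs. The 15 miRNAs kept their direction in each of the 17 alternative settings, including all of these scalings. Some settings could hardly turn it. Every mouse already showed the same direction for all 15, and the filters left their fold changes as in the main test.

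Single calls were less steady than directions. MiR-122 and miR-200c passed whichever mouse was left out, while miR-486, miR-192, miR-200a and let-7e (4 of the 15) passed only with all 4 mice. The other 9 lost the call without some mice. Without TS1 and FT2 these were miR-451, miR-100, miR-10b, miR-10a, miR-429, miR-99a, let-7a and miR-672, and without TS2 and FT3 the same except for miR-451 and with miR-135a. Without TS3 and FT4 they were miR-451, miR-135a, miR-100, miR-10a, miR-99a and let-7a, and without TS4 and FT5 miR-429 and miR-672. The adjusted p in these cases was closest to the threshold for miR-100 (0.0511 to 0.0628) and farthest for miR-672 (0.235 to 0.398).

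Higher in plasma were miRNAs of liver and of erythrocytes. MiR-122 took 24.7%, 54.2%, 46.3% and 57.6% of the counts in TS1 to TS4 and 0.00741%, 0.784%, 0.00742% and 0.0945% in FT2 to FT5. It was the leading miRNA of 3 plasmas and second in TS1, while in FT2 and FT4 its 13 and 16 counts were below the negative-control level. Its log2 fold change was 10.10 (SE 1.95, adjusted p = 0.00015, edgeR). MiR-192 took 0.118%, 0.387%, 0.295% and 0.284% in the plasmas and between 0.00649% and 0.0321% in the tubes. No tube reached the lowest plasma, and the log2 fold change was 4.02 (SE 1.22, adjusted p = 0.0411, edgeR). Its adjusted p was between 0.0773 and 0.243 with 1 mouse left out. The mean tube count of miR-192 was below the negative-control level, so its plasma share was at least 12.6-fold higher. This bound, here and below, sets the geometric mean share of the higher group against the geometric mean, in the lower group, of each sample's own share or its negative-control level, whichever was greater. The third liver miRNA, miR-194, had a log2 fold change of 3.48 (adjusted p = 0.0779, edgeR) and was higher in plasma in all 4 mice. Summed, the 3 liver miRNAs made up between 24.8% and 58.2% of a plasma and between 0.0204% and 0.829% of a tube, with the highest tube value in FT3.

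MiR-451 is processed from its hairpin without Dicer and is needed for red cell maturation. It took 31.9%, 7.60%, 5.63% and 3.56% in TS1 to TS4 and 0.0393%, 1.36%, 0.0436% and 0.126% in FT2 to FT5. TS1 was well above the other plasmas and FT3 well above the other tubes, yet the highest tube stayed below the lowest plasma. The log2 fold change was 5.95 (SE 1.67, adjusted p = 0.0228, edgeR), with 4.78 (adjusted p = 0.245) without TS1 and FT2 and 5.28 (adjusted p = 0.11) without TS3 and FT4. MiR-486, which is encoded in the Ank1 gene and abundant in red cells and muscle, took 3.12%, 0.509%, 1.68% and 0.248% in the plasmas and between 0.0167% and 0.126% in the tubes. Its log2 fold change was 4.65 (SE 1.43, adjusted p = 0.0444, edgeR), and its adjusted p was between 0.0759 and 0.379 with 1 mouse left out.

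Of the 4 erythrocyte miRNAs, 2 passed the test as higher in plasma (0.707% of all miRNAs did) and all 4 had log2 fold changes above 0, with a median of 4.32 against -0.44 for the panel. The other two were miR-144, at 4.0 (adjusted p = 0.0898, edgeR), and miR-16, at 1.83 (adjusted p = 0.742). MiR-16 is made in most cell types as well as in red cells, and it took 9.01%, 5.10%, 6.68% and 1.43% in the plasmas and 0.298%, 2.80%, 1.21% and 2.14% in the tubes. FT3 and FT5 exceeded TS4, so the groups overlapped. The ratio of miR-451 to miR-23a counts, a common gauge of red cell RNA in plasma because miR-23a is little affected by it, was 80.4, 7.94, 5.20 and 15.5 in TS1 to TS4. In the tubes it was 0.356, 2.26, 0.287 and 0.0777. TS1 was highest in miR-451, miR-486 and miR-16 as well as in this ratio, and the part of red cell RNA in these results was not tested.

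**Figure D3:**
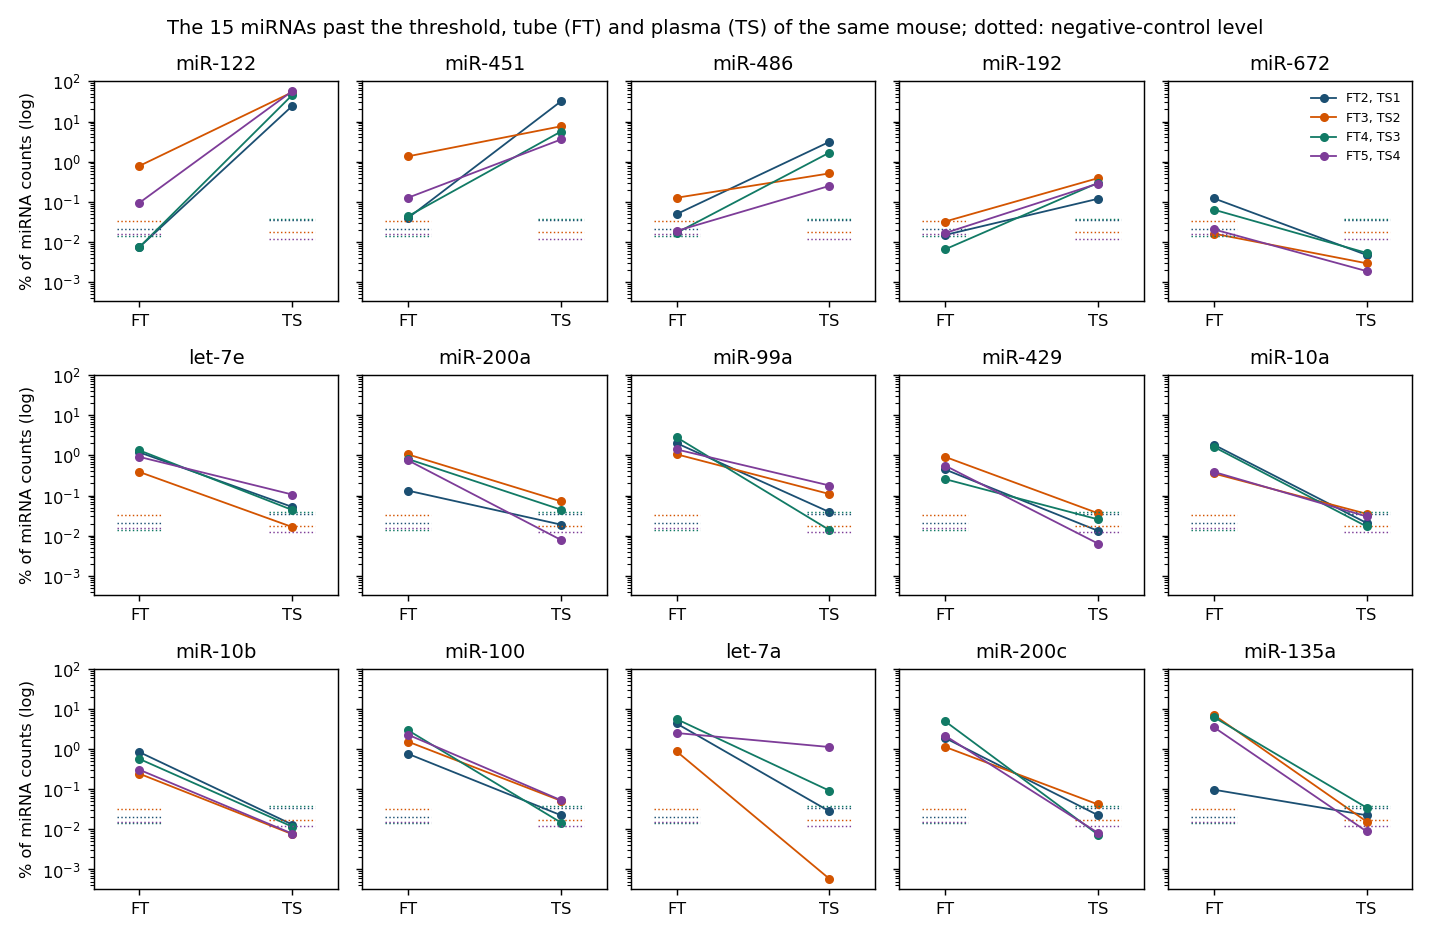
Share of miRNA counts (%, log axis) of the 15 miRNAs past the threshold, with a line from the tube (FT) to the plasma (TS) of each mouse and dotted marks at each sample's negative-control level. All lines rise for miR-122, miR-451, miR-486 and miR-192 and fall for the other 11, and the plasma ends of miR-672 lie below the dotted marks.

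Higher in tube were the miRNAs that mark epithelium. The miR-200 family holds cells in the epithelial state by repressing Zeb1 and Zeb2. MiR-200c took 1.91%, 1.14%, 4.98% and 2.17% in FT2 to FT5 and 0.0226%, 0.0420%, 0.00741% and 0.00818% in TS1 to TS4. Only TS2, with 72 counts, was above its negative-control level, and the other plasmas held 24, 7 and 22 counts. The log2 fold change was -7.13 (SE 1.56, adjusted p = 0.00154, edgeR), and the tube share was at least 77.1-fold higher. MiR-429, with a log2 fold change of -4.87 (adjusted p = 0.0213, edgeR), had tube shares between 0.257% and 0.920% and plasma shares between 0.00632% and 0.0361%, which gives at least 17.9-fold. MiR-200a took 0.132%, 1.06%, 0.813% and 0.754% in the tubes and between 0.00781% and 0.0717% in the plasmas. FT2 was lowest among the tubes, and the log2 fold change was -4.30 (adjusted p = 0.0411, edgeR, and 0.0773 to 0.248 with 1 mouse left out).

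All 5 members were above the negative controls in tube and 2 in plasma, 3 passed the test as lower in plasma (1.94% of all miRNAs did), and none overlapped between tube and plasma (6.89% of all miRNAs did not overlap and were lower). Their median log2 fold change was -4.30, and that of the panel -0.44. MiR-200b, at -4.03, was the member best measured in plasma, with 170, 273, 115 and 131 counts in TS1 to TS4, and gave an adjusted p of 0.0760 (edgeR). MiR-141 gave -3.93 and an adjusted p of 0.0761. Summed, the family made up 4.37%, 5.10%, 10.6% and 4.90% of FT2 to FT5 and 0.224%, 0.334%, 0.218% and 0.0747% of TS1 to TS4. The highest family share among tubes (FT4) and the highest among plasmas (TS2) came from different mice. In these bulk samples fewer cells of a type and less RNA per cell cannot be told apart.

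MiR-10a and miR-10b lie within Hox gene clusters and are expressed along the body axis as the Hox genes are. MiR-10b took 0.845%, 0.244%, 0.571% and 0.307% in the tubes, and its plasma counts of 14, 13, 11 and 21 were all below the negative-control level. The log2 fold change was -5.47 (SE 1.32, adjusted p = 0.00584, edgeR), or at least 19.1-fold. MiR-10a took 1.86%, 0.355%, 1.64% and 0.389% in the tubes and between 0.0169% and 0.0350% in the plasmas, with a log2 fold change of -5.01 (adjusted p = 0.0223, edgeR). In both, FT2 and FT4 were above FT3 and FT5. MiR-196b, also encoded in the Hox clusters, had 2926, 24, 366 and 50 counts in FT2 to FT5 and at most 12 in a plasma (log2 fold change -4.35, adjusted p = 0.0703, edgeR). FT3 and FT5 were thus just below their negative-control levels of 24.19 and 50.1 counts. Of the 4 Hox cluster miRNAs, 2 passed the test as lower in plasma (1.94% of all miRNAs did), and the list's median was -4.68 on the log2 scale against -0.44 for the panel.

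MiR-100 and miR-99a, whose family targets the mTOR kinase, were both called lower in plasma. MiR-100 took 0.768%, 1.54%, 2.97% and 2.30% in the tubes and 0.0226%, 0.0519%, 0.0148% and 0.0535% in the plasmas, with a log2 fold change of -5.70 (SE 1.41, adjusted p = 0.00617, edgeR). MiR-99a had tube shares of 2.02%, 1.07%, 2.83% and 1.41%. Its plasma shares spread from 0.0138% in TS3 to 0.178% in TS4, and the log2 fold change was -4.81 (SE 1.43, adjusted p = 0.0407, edgeR). For both miRNAs FT4 was the highest tube, and TS3 of that mouse held 14 counts of miR-100 and 13 of miR-99a, below its negative-control level. MiR-99b, with the same seed, gave a log2 fold change of -2.59 (adjusted p = 0.332).

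The let-7 family, whose members restrain growth genes such as Hmga2, Myc and Ras, was the largest group in the tubes. Its 9 members summed to 42.0%, 8.46%, 40.4% and 21.6% in FT2 to FT5 and to 11.9%, 3.86%, 8.37% and 11.2% in TS1 to TS4. Members differed from each other. Let-7e took 1.19%, 0.386%, 1.33% and 0.918% in the tubes and 0.0517%, 0.0163%, 0.0434% and 0.106% in the plasmas, with a log2 fold change of -4.29 (SE 1.29, adjusted p = 0.0407, edgeR, and 0.0520 to 0.245 with 1 mouse left out). Let-7a gave -6.36 (SE 1.76, adjusted p = 0.0223, edgeR) but was uneven in plasma, with 30, 1, 87 and 3052 counts in TS1 to TS4. Its 1.14% in TS4 exceeded the 0.884% in FT3, so it was the single called miRNA whose groups overlapped. Let-7g took 0.766%, 1.95%, 4.94% and 3.48% in the tubes and 5.31%, 0.346%, 3.63% and 3.69% in the plasmas, with a log2 fold change of -0.07 (SE 1.35, adjusted p = 0.996). It was higher in plasma in 2 mice and in tube in the other two.

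Of the 9 members, 2 passed the test as lower in plasma (1.94% of all miRNAs did), all 9 were above the negative controls in both kinds of sample, and the family's median was -2.33 on the log2 scale against -0.44 for the panel. Let-7g turned above 0 under TMM, quantile normalization, DESeq2 and a total without miR-122 and miR-451, and the family median stayed below 0 under each scaling.

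MiR-135a had the lowest fitted fold change of all called miRNAs, -7.33 (SE 1.78, adjusted p = 0.00584, edgeR). It took 0.0980%, 7.22%, 6.36% and 3.57% in FT2 to FT5, so that FT2, the Brca1-/- tube, stood far below the other tubes. The plasmas held 24, 27, 33 and 24 counts, all below the negative-control level, and the tube share was at least 87.6-fold higher. MiR-672 had 214, 12, 137 and 67 counts in the tubes and 5 counts in each plasma. Its log2 fold change of -3.54 (SE 1.06, adjusted p = 0.0407, edgeR) compares with a bound of at least 1.75-fold, since FT3 was also below the negative-control level.

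Several abundant tube miRNAs differed widely without passing the test. MiR-125b-5p, which is abundant in stroma, took 1.28%, 5.92%, 2.73% and 12.2% in the tubes and 0.149%, 0.811%, 0.351% and 0.0442% in the plasmas. The groups did not overlap, the highest tube (FT5) and the lowest plasma (TS4) came from the same mouse, and the log2 fold change was -3.87 (adjusted p = 0.121, edgeR). MiR-720, a probe name for what has since been classed as a fragment of a transfer RNA, took 1.78%, 12.1%, 13.1% and 5.03% in the tubes and 0.119%, 0.0880%, 0.167% and 6.05% in the plasmas. TS4 alone was at the level of the tubes, and the log2 fold change of -4.66 had an adjusted p of 0.143 with all mice and -5.81 an adjusted p of 0.0296 without TS4 and FT5. TS4 was also the plasma with the most let-7a, the most let-7d (2.43%) and the most housekeeping messenger RNA counts (204), and the part of cellular RNA in these values was not tested. MiR-1944 reached 10.4% in FT2 and at most 1.08% in another tube (adjusted p = 0.745).

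Markers of cell types other than epithelium, liver and red cells had few or no calls. The endothelial miR-126-3p took 13.2%, 1.75%, 5.21% and 2.35% in the tubes and 0.650%, 0.618%, 0.922% and 0.869% in the plasmas. The groups did not overlap, the plasma shares were within a narrow range while FT2 stood out, and the log2 fold change was -2.40 (SE 1.29, adjusted p = 0.527, edgeR). The 5 leukocyte miRNAs had a median log2 fold change of 0.97 with 0 calls, and their sum ranged from 0.183% to 0.825% in tubes and from 0.391% to 1.31% in plasmas. MiR-223, the myeloid member, was higher in plasma in all 4 mice, with 0.298%, 0.315%, 0.767% and 0.130% against at most 0.109% in a tube (log2 fold change 2.93, adjusted p = 0.385). MiR-155 was listed at 1 count, the lowest value in the file, in every sample of these 4 mice except TS3, where it had 61.

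Smooth muscle and stroma miRNAs (5 on the panel, 0 calls) summed to 1.16%, 6.67%, 0.726% and 9.46% in FT2 to FT5 and to between 0.194% and 1.19% in the plasmas. Mesenchymal miRNAs (3, with 0 calls) followed the same order of tubes, with 0.213%, 1.59%, 0.103% and 1.83%. The ciliated cell miRNAs (5 of 6 listed are on the panel, 0 calls) summed to 0.0228%, 1.10%, 0.0288% and 0.958% in the tubes. MiR-34c, the defining member, had 1, 411, 1 and 2014 counts in FT2 to FT5 and 1 in every plasma. In FT2 and FT4 this ciliated marker was therefore at the lowest value in the file, and in the plasmas none of the 5 was above the negative controls. FT3 and FT5, the tubes with muscle, stroma and ciliated markers, came from the 2 Brca2-/+ mice, so genotype and the make-up of the tissue cannot be told apart among these 4 tubes.

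**Figure D4:**
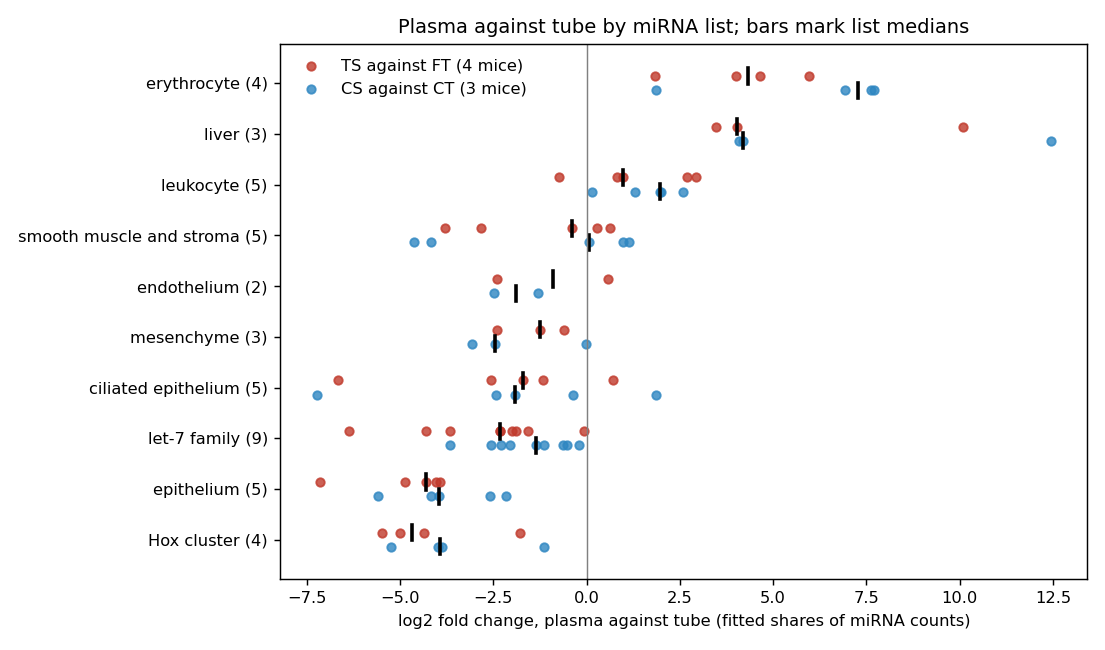
Log2 fold change of plasma against tube (horizontal axis, fitted shares) for every member of 10 miRNA lists, in 4 induced mice (TS against FT, red) and in 3 control mice (CS against CT, blue), with a bar at each list's median. Erythrocyte and liver lists lie to the right of 0 and epithelium and Hox cluster lists to the left in both kinds of mice.

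Of miR-126-3p, miR-21, miR-146a, miR-1224 and miR-34b-3p, which the study followed further, none passed the test of plasma against tube. MiR-122 and miR-486, which passed it, were on the study's list of miRNAs raised in metastases and in induced tubes. The study left miR-486 aside because hemolysis affects its level. The study compared induced with control samples within tissue and within plasma, which this test does not address. MiR-126-3p, given above, was lower in plasma in all 4 mice, and miR-21 and miR-146a had fitted log2 fold changes near 0 with mice on both sides. MiR-21, an miRNA raised in many cancers, took 0.690%, 1.80%, 1.0% and 0.780% in FT2 to FT5 and 0.448%, 0.728%, 3.53% and 0.431% in TS1 to TS4. TS3 was above every tube and the other plasmas were below their own tubes, with a log2 fold change of -0.31 (SE 1.23, adjusted p = 0.954, edgeR). MiR-146a, which damps NF-kB signalling, took 0.258%, 0.154%, 0.0608% and 0.153% in the tubes and 0.0996%, 0.211%, 0.515% and 0.0602% in the plasmas (log2 fold change 0.07, adjusted p = 0.996). For both, TS3 was the highest plasma, and FT4 of that mouse was not the highest tube. MiR-34b-3p had 8, 77, 11 and 485 counts in the tubes and 11, 12, 14 and 8 in the plasmas, so no plasma was above background. MiR-1224 had 1082 counts in FT2 and between 29 and 120 in the other tubes, while TS1 of the same mouse had 40 and the other plasmas 74, 102 and 85. MiR-425, used by the study as a reference, took between 0.0162% and 0.0721% in the tubes and between 0.0253% and 0.0709% in the plasmas (log2 fold change 0.32, adjusted p = 0.943). Its direction, and that of miR-21 and miR-146a, changed with the scaling.

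The change from tube to plasma was set against that of control mice, and no difference between the 2 kinds of mice passed the test. In CS2, CS3 and CS4 miR-122 took 24.6%, 26.0% and 41.7% and miR-451 took 25.0%, 17.5% and 12.1%. The control tubes held 11, 10 and 17 counts of miR-122, all below background, and its log2 fold change in control mice was 12.44 against 10.10 in induced mice (difference -2.35, SE 1.69, adjusted p = 0.416, edgeR). MiR-200c gave -5.59 in control mice (difference -1.53, SE 1.46, adjusted p = 0.509). MiR-672 gave -0.48 in control and -3.54 in induced mice when these were fitted alone (difference -3.07, SE 1.21, adjusted p = 0.310), but no control plasma was above its background.

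Across the panel the interaction gave 0 calls (0% of those tested) in edgeR, with a smallest adjusted p of 0.278 and 83 miRNAs at an unadjusted p below 0.05. DESeq2 gave 13 (12 higher and 1 lower in the induced mice). Geometric mean scaling, with the study's separate settings for tissue and plasma, gave 13 in the opposite balance (0 higher and 13 lower). Leaving out TS3 and FT4 gave 53, all lower. The control plasmas CS2 and CS3 had 36639 and 18350 miRNA counts, so that a miRNA at background takes a larger share there, and the panel's median difference was -1.29. Between 4 induced and 3 control mice, no difference in the step from tube to plasma was detected in the main test. On simulated data the same test recovered 2.5% of changes of 4-fold and 74.5% of those of 16-fold. The changed miRNAs there were outside the most abundant ones, and mean shares were otherwise equal in plasma and tube. These rates therefore need not hold for miRNAs such as miR-122. The induced mice differed from controls in doxycycline treatment and tumors as well as in the deletions, which cannot be told apart.

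Within a mouse, levels in tube and plasma were moderately related across miRNAs. Over the miRNAs above the level in both samples of a mouse, Spearman's rho was 0.325 (n = 55) in FT2 and TS1, 0.524 (n = 96) in FT3 and TS2, 0.431 (n = 77) in FT4 and TS3, and 0.579 (n = 111) in FT5 and TS4. These describe miRNAs, which share a library and its probes and are not independent. Over the same 107 miRNAs in every sample, rho between a tube and the plasma of its own mouse had a median of 0.419 (range 0.259 to 0.582), and between a tube and the plasma of another mouse a median of 0.418 (range 0.194 to 0.653). Tubes resembled each other (median 0.753 over 6 pairs) and so did plasmas (0.733) more than either resembled the other. FT3 had the highest rho of the 4 tubes with every plasma, its own or not.

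To ask whether the mice differed in the same way in tube and plasma, the mean of each miRNA over the 4 tubes was taken from its tube values, on the log2 scale with a pseudocount of 10 added to shares expressed as counts per 1000000, and the mean over the 4 plasmas from its plasma values. The deviations of a tube and of its own plasma correlated at 0.004 in FT2 and TS1, 0.044 in FT3 and TS2, -0.112 in FT4 and TS3, and -0.055 in FT5 and TS4, over 107 miRNAs. The 12 pairings of a tube with the plasma of another mouse lay between -0.105 and 0.153. The mean over own pairs was -0.030 and over the others 0.009. In an exact permutation test over the 24 ways to pair 4 tubes with 4 plasmas, the difference of -0.039 had a one-sided p of 0.708 (smallest possible p 0.0417, n = 4 mice). Tracking of tube by plasma was thus not detected, and with 24 pairings the test can pass only if the true pairing ranks first. The sign of the difference turned when a mean count of 50 or more was required in both (0.0166) and without TS3 and FT4 (0.0107), and no setting had a p below 0.333.

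**Figure D5:**
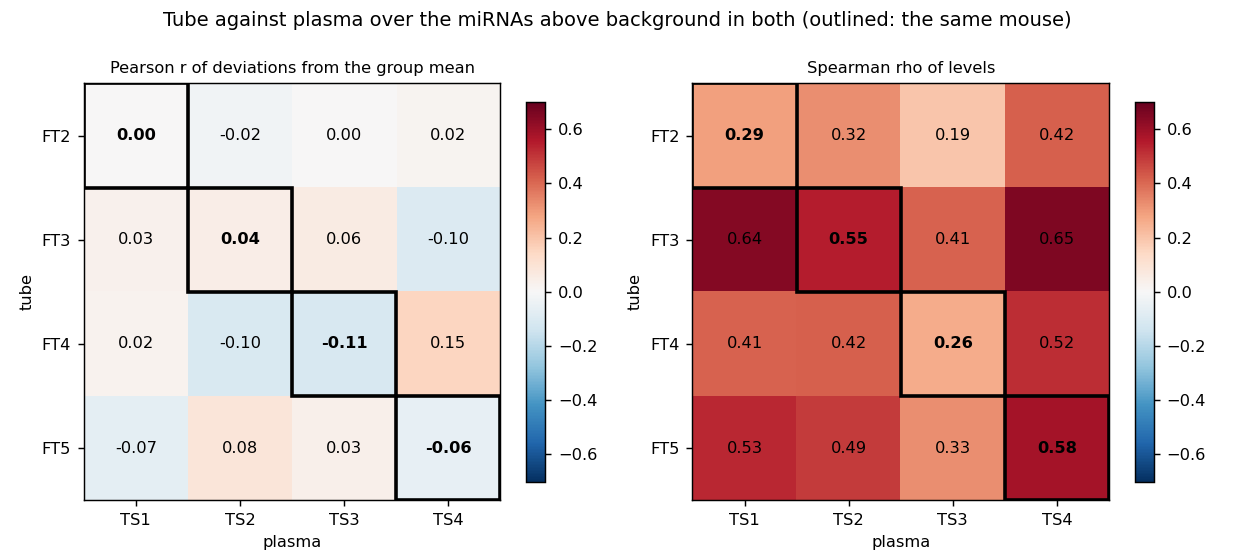
Correlation of each tube (rows) with each plasma (columns) over 107 miRNAs, as Pearson's r of deviations from the group mean (left) and Spearman's rho of levels (right), with the same mouse outlined. On the left the outlined values lie between -0.112 and 0.044 and the others between -0.105 and 0.153, and on the right the FT3 row is highest in every column.

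Counted another way, 15 of the 107 miRNAs had their highest tube and highest plasma in the same mouse, against a mean of 26.8 over the 24 pairings (range 11 to 49). Its one-sided exact p was 0.917. Among tubes 53 miRNAs were highest in FT3, and among plasmas 54 were highest in TS3. FT3 and TS3 have the fewest counts in their groups and belong to different mice, and the part of this in the count was not tested.

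The miRNAs that varied most among tubes gave the widest range on which plasma could have followed. They were miR-29b, miR-148a, miR-122, miR-29c and miR-1937c, with SDs over tubes between 2.99 and 3.60 on the log2 scale, against a median of 1.32 over the 107. MiR-29b, a repressor of collagen genes, took 0.0211%, 4.82%, 0.0640% and 1.05% in FT2 to FT5 and 0.0564%, 0.101%, 0.0148% and 0.444% in TS1 to TS4. FT3 and FT5 were the high tubes and TS2 and TS4, from those mice, the high plasmas, although FT3 exceeded FT5 and TS2 was below TS4. MiR-29c followed a like order, with 0.0262%, 2.59%, 0.0561% and 0.783% in the tubes and 0.120%, 0.422%, 0.325% and 0.376% in the plasmas. MiR-148a, abundant in liver and secretory epithelia, took 0.0296%, 4.37%, 1.03% and 4.69% in the tubes and 0.863%, 4.12%, 1.16% and 1.90% in the plasmas. In all 3 the 2 lowest tubes were FT2 and FT4 and the 2 lowest plasmas were TS1 and TS3 of the same mice. The same held for miR-122, whose counts in FT2 and FT4 were below background, and for miR-29b the 14 counts in TS3 were below background. It did not hold for miR-1937c, which took 0.0137%, 0.801%, 0.0204% and 0.418% in the tubes and 0.0799%, 0.0163%, 0.0667% and 0.266% in the plasmas, with TS2 lowest. These were chosen for their spread and carry no test. How many of the 107 miRNAs had these lowest tubes with these lowest plasmas was not counted. Over all 107 the difference of own from other pairs was -0.039, as given above.

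Among plasmas the widest SDs, between 2.39 and 4.55, were those of let-7a, miR-375, miR-720, let-7d and miR-1937a+miR-1937b (median over the 107, 0.909). MiR-375, an miRNA of endocrine and secretory epithelial cells, took 0.0405%, 0.0775%, 0.0626% and 0.296% in FT2 to FT5 and 0.380% in TS2. The other plasmas held 14, 27 and 7 counts of it, all below the negative-control level, among them that of the mouse with the highest tube share (FT5). MiR-1937a+miR-1937b took 0.0296%, 1.11%, 0.0297% and 0.627% in the tubes and 0.165%, 0.0105%, 0.0889% and 0.543% in the plasmas. FT3 was the highest tube while TS2 of that mouse, with 18 counts, was below background, and FT5 was the next tube and TS4 the highest plasma. Tubes spread more than plasmas in 81 of the 107 miRNAs.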

How the data were processed

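The NanoString nCounter mouse miRNA assay ligates tags to miRNAs and counts fluorescent barcodes without amplification. The authors deposited counts per probe (626 probes, of which 60 were controls or not mouse miRNAs), whole numbers from 1 up, without their nSolver normalization, and any correction before deposit is not given in the sources used here. Panel names are older ones and were matched by hand to RefSeq mature names.

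Shares were counts over the sample's total on the mouse miRNA probes. The quasi-likelihood test of edgeR 4.0.16 (R 4.3.3) compared plasma with tube (all mouse miRNAs, that total as library size, Benjamini-Hochberg, threshold 0.05), with the mouse as a block, and the difference from 3 control mice as an interaction. TS1 to TS4 share a mouse with FT2 to FT5, and CS2 to CS4 with CT2 to CT4, by the genotype list. Deviations of a tube and plasma of 1 mouse correlated between -0.112 and 0.044. With the mouse as a block, p-values rest on how the plasma against tube difference spread between mice, moderated toward the spread across the panel. SEs followed a miRNA's own spread only in part. MiR-10b, with paired log2 differences from -6.00 to -5.01, had an SE of 1.32, and let-7d, from -4.81 to -0.25, had 1.35. The files give 1 library per sample, so the spread between mice includes the measurement noise of single libraries. Alternatives used TMM, geometric mean, miR-425 and quantile scaling, DESeq2 1.42.0, limma 3.58.1, negative controls subtracted, filters on mean counts of 20 and 50, pseudocounts of 10 and 100, no block and each mouse left out. A total without miR-122 and miR-451, and the count of miRNAs highest in the same mouse, were added after seeing the data. Scripts were tested on simulated data that began with mean shares equal in plasma and tube. There 200 miRNAs, none among the most abundant, were changed. At 4-fold, 24.0% of these were recovered for plasma against tube and 2.5% for the interaction. At 16-fold, 93.0% and 74.5% were recovered, and 7.46% and 16.3% of the calls were false, above the threshold of 0.05.

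The pairs, lists and named miRNAs were chosen with earlier results of these data known. Named were the 8 largest increases and decreases past the threshold without overlap, the 8 leading miRNAs of tube and of plasma, miRNAs the study followed, and the 5 most variable in each. The lists, from general knowledge, were erythrocyte, liver, epithelium, Hox cluster, let-7 family, ciliated epithelium, smooth muscle and stroma, mesenchyme, endothelium and leukocyte. FT1, CT1 and CT5 had no plasma partner used here. Part of the genotypes is not reported here.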

Additional observations from a re-analysis of the deposited data

Results flagged for a closer look

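Among the 36 miRNAs named, the gap of 1 sample to the next, as a share of the range of its group of 4 on the log2 scale, exceeded Dixon's 95% critical value in 4 of 72 groups, where chance gives about 1 in 20. In the tubes FT2 was far below the others in miR-135a (0.836) and in miR-200a (0.837). In the plasmas TS4 was far above in miR-720 (0.848) and TS2 far below in let-7g (0.861).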

How the results depend on the processing

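The count of 15 miRNAs became 27 with TMM, 481 with geometric mean scaling (5 higher and 476 lower, with a panel median of -2.26 against -0.44), 0 with miR-425 scaling (132 at an unadjusted p below 0.05), 25, 26 and 27 with the filters on a mean count of 20, of 50 and on the negative controls, 75 with DESeq2 (329 adjusted p-values NA), 41 with limma at a pseudocount of 10, and between 3 and 12 with a mouse left out. Between 3 and 9 of the calls with a mouse left out were among the 15. In the paired design, without the replicate block 48 passed, and the interaction still gave 0. The interaction gave 13 with geometric mean scaling (all lower), 13 with DESeq2 (12 higher) and between 0 and 53 with a mouse left out, and 0 with the other alternatives. The own-mouse difference in tracking turned to 0.0166 at a mean count of at least 50, ranged from -0.0956 to 0.0107 with a mouse left out, and was -0.149 with negative controls subtracted. With the ligation controls, measured in plasma became 185, in tube 178 and in both 144. The geometric mean was that of the 100 most abundant miRNAs in a tube and of the 30 most abundant in a plasma. The study used these numbers separately for tissue and for plasma. A mean over fewer of the most abundant is higher, so the scaling itself lowers plasma against tube. Other causes were not tested.

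Of 611 further values of named miRNAs, 463 kept direction and side of the threshold, 78 lost it, 24 gained it and 46 changed sign, none of the last a miRNA called in the main test. With geometric mean scaling these were miR-16 (-0.06), miR-22 (-0.62), miR-148a (-1.26), miR-146a (-1.66), miR-425 (-1.53), miR-29c (-1.58), miR-1937c (-1.98) and miR-1937a+miR-1937b (-1.90). With TMM they were let-7g (0.30) and miR-21 (0.13), with quantile normalization let-7g (1.02), miR-21 (1.23) and miR-1937a+miR-1937b (-0.01), with DESeq2 let-7g (0.34), miR-21 (0.17) and miR-1224 (0.02), and without miR-122 and miR-451 in the total let-7g (1.16), miR-21 (0.95) and miR-1224 (0.88). With miR-425 scaling they were miR-146a (-0.03), miR-1937c (-0.38) and miR-1937a+miR-1937b (-0.34), with limma at pseudocounts of 10 and 100 miR-1937c (-0.51 and -0.58) and miR-1937a+miR-1937b (-0.71 and -0.63). Without the replicate block they were let-7g (0.22), miR-148a (-0.33), miR-21 (0.27), miR-29c (-1.47), miR-1937c (-1.54) and miR-1937a+miR-1937b (-1.15). With a mouse left out, let-7g ranged from -0.92 to 0.74, miR-148a from -0.40 to 1.33, miR-21 from -0.93 to 0.06, miR-146a from -0.77 to 0.68, miR-1224 from -0.96 to 0.49, miR-425 from -0.29 to 0.94, miR-29c from -0.63 to 1.33, miR-1937c from -1.13 to 1.23 and miR-1937a+miR-1937b from -0.97 to 1.29. Of the 156 miRNAs measured in tube, 49 were not above the negative controls in plasma, which limits their plasma values.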
